A study of Mus musculus with 26 samples.

Results

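Naïve lung ILC2s of CC030 and C57BL/6J mice were compared one chromosome at a time, using the 3 CC030 and the 3 C57BL/6J libraries sequenced directly after sorting, 6 of the 26 libraries of the series. Genes were grouped by the chromosome that the mm10 annotation gives them, which placed 55141 of 55401 gene identifiers, 1599 on chromosome 16 and 37 on the mitochondrial chromosome, M. Chromosomes 16 and M were set against the rest because they were singled out as those whose gene positions nearly agree between the mouse genome builds mm9 and mm10. Gene positions in mm9 were not analysed here, so that property was taken as given.

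All 6 libraries came from unchallenged female mice, each a separate animal. C57BL/6J is the inbred line behind the mouse reference sequence. CC030/GeniUnc (CC030) belongs to the Collaborative Cross, a panel of inbred lines whose genomes are mosaics of several founders, and carries the CAST/EiJ founder haplotype at the chromosome 7 locus the study mapped. Lineage-negative lung cells enriched for CD25 were sorted as CD90+, CD127+, CD25+ and ICOS+, and libraries were prepared by SMART-Seq v4, a method for small amounts of RNA. The authors aligned the reads of C57BL/6J to mm10. Those of CC030 went to a pseudogenome based on mm9, and their alignments were converted to mm10 coordinates before HTSeq counted reads per gene. Strain and alignment route therefore changed together, and in the comparisons below they cannot be told apart. Words such as lower, higher, fell and rose describe the counts credited to a gene at its annotated mm10 position.

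Group 2 innate lymphoid cells are tissue lymphocytes without an antigen receptor that answer epithelial alarmins such as IL-33 and TSLP with type 2 cytokines. They depend on the transcription factors GATA3, RORα and ID2 and survive through the IL-7 receptor. A genome build is a coordinate system: a gene keeps its sequence between builds, but its numbered position can move, and a read is credited to whichever gene is annotated at the position it was given. Mouse chromosome 16 carries interferon and IL-10 family receptors, the CD200 receptor family and several costimulatory and inhibitory receptors. Chromosome M encodes respiratory chain subunits with the ribosomal and transfer RNAs of the mitochondrion.

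Total counts per library were 13533363 to 15234305 in C57BL/6J and 1324595 to 1524751 in CC030, yet a count was present at 15946 to 16553 genes in C57BL/6J and at 43527 to 46111 in CC030. C57BL/6J replicate 3 stood apart, since Sftpc, the surfactant gene of alveolar epithelium, had 1, 4 and 172153 counts in C57BL/6J replicates 1 to 3 and 1 to 14 in CC030. The 6 epithelial and endothelial markers summed to 98.9, 67.5 and 15180 CPM in C57BL/6J and 59.4 to 77.5 in CC030. CPM here are counts scaled to library size and to a TMM factor given below. Of 29 ILC2 identity genes, 22 passed the test as lower in CC030, 2 as higher and 5 did not pass, where 12.2% of all genes tested were lower and 64.1% higher (76.3% called in all). Their summed level was 24790 to 30540 CPM in C57BL/6J against 426 to 488 in CC030. Cxcr6, Tnfrsf18 and Nmur1, which mark lung ILC2s, were at 0 in every CC030 library, and Gata3 had 2563, 2997 and 4559 counts in C57BL/6J against 25, 7 and 18. By these counts the CC030 libraries went against their ILC2 label. The paper's flow cytometry is other evidence: it found CC030 lung ILC2s GATA3+ and largely ST2+, and the authors class them as ILC2s. Counts here carry the alignment route as well as the strain. The 7 NK and ILC1 markers summed to 85.2 to 92.9 CPM in CC030 and at most 5.32 in C57BL/6J. The 8 myeloid markers summed to 99.1 to 149 in CC030 against 0.24, 21.3 and 1290 in C57BL/6J replicates 1 to 3. The 10 T cell markers summed to 145 to 220 in CC030 against 1661 to 3175, and the 8 B cell markers to 84.6 to 124 against 424 to 907. Divided by exonic length, the median CC030 level was 4.44 CPM per kb for NK and ILC1 markers and 5.931 for myeloid markers. It was 6.358 for T cell markers, 5.17 for B cell markers and 3.797 for the ILC2 identity genes. Olfactory receptors, genes of sensory neurons, stood at 3.155, so a CC030 sum alone does not show that a cell type was present. The part of these cell type markers in the results below was not tested. In bulk samples, fewer cells of a type cannot be told apart from less RNA per cell.

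The first question was how much signal each chromosome carried. Counts of protein-coding genes were summed per chromosome and divided by their exonic length in kb, which gives a density that can be set side by side between chromosomes. In CC030, over the 20 nuclear chromosomes other than Y, density ran from 8.97 to 13.8 counts per kb in replicate 1, 9.73 to 18.1 in replicate 2 and 9.78 to 16.1 in replicate 3. In C57BL/6J it ran from 83.4 to 355, from 88.9 to 402 and from 102 to 227 in replicates 1 to 3. The coefficient of variation over these chromosomes was 10.96%, 18.98% and 12.9% in CC030 and 45.7%, 49.0% and 23.9% in C57BL/6J. Much of that separation came from chromosome X. A comparison over the 19 autosomes alone was added after the data were seen. There the coefficient was 10.7%, 19.1% and 12.6% in CC030 and 19.2%, 19.8% and 21.1% in C57BL/6J, so CC030 replicate 2 lay beside C57BL/6J. That closeness rested on Atg3, a chromosome 16 gene described below. Without Atg3, CC030 replicates 1 to 3 stood at 10.73%, 15.02% and 12.58%. C57BL/6J replicates 1 to 3 then stood at 19.25%, 19.81% and 21.18%, which did not overlap with CC030. Atg3 was chosen after its values were seen, and no autosomal gene strong in C57BL/6J was left out likewise. That separation is therefore a description and no test.

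**Figure D1:**
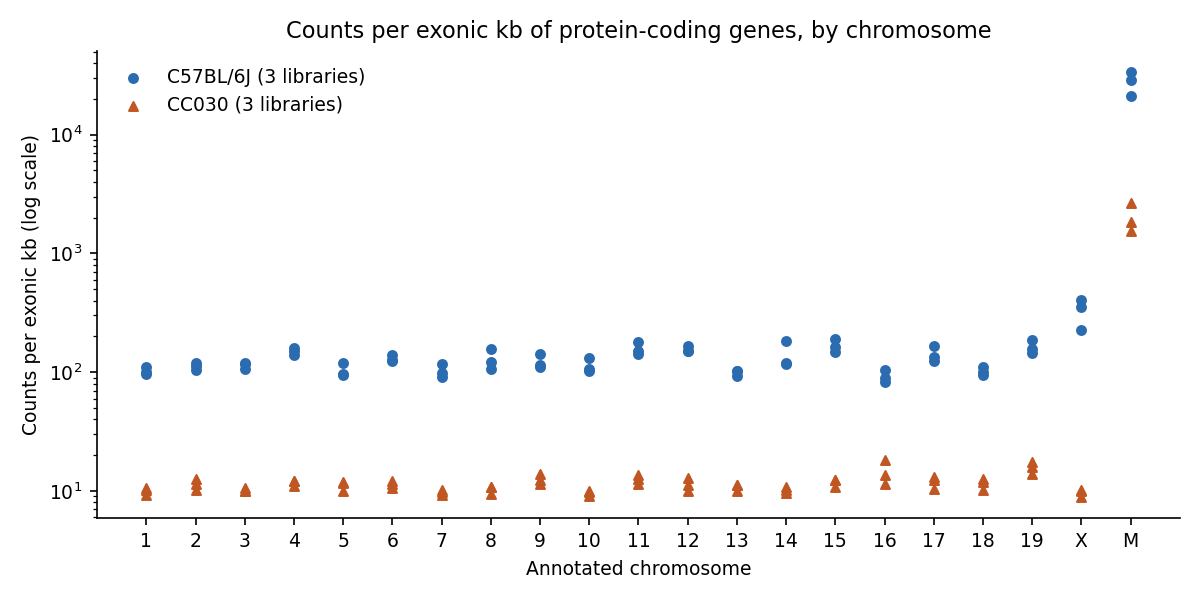
Counts per exonic kb of protein-coding genes (log scale) against annotated chromosome for 3 C57BL/6J libraries (circles) and 3 CC030 libraries (triangles). CC030 points lie from 8.97 to 18.1 over the nuclear chromosomes, whereas C57BL/6J points rise on chromosome X and both strains rise on chromosome M.

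The high density and share of chromosome X in C57BL/6J came from 1 gene, Tmsb4x. The density of X was 3.33, 3.39 and 1.63 times the median of the autosomes in C57BL/6J and 0.885, 0.895 and 0.831 times in CC030. X carried 7.82% ± 2.35 of counts in C57BL/6J and 2.93% ± 0.051 in CC030 (SD, n = 3). Tmsb4x, which encodes the actin-sequestering peptide thymosin beta 4, had 844036, 981704 and 405338 counts in C57BL/6J and 0 in all 3 CC030 libraries. With 3 counts per library as the limit that a count of 0 allows, it was at least 60030-fold lower in CC030 (adjusted p = 0.00046). Tmsb4x alone held 6.24%, 6.81% and 2.66% of all counts in C57BL/6J. Without it, X carried 2.84%, 2.81% and 2.53% in C57BL/6J and 2.96%, 2.96% and 2.87% in CC030, which turned the direction, and its density was 0.888, 0.836 and 0.733 times the autosomal median in C57BL/6J.

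Chromosome 16 had the lowest density of the 20 chromosomes in C57BL/6J replicates 1 and 2, at 83.4 and 88.9 counts per kb, and stood at 104 in replicate 3. In CC030 it stood at 11.4, 18.1 and 13.6, above the median of the other chromosomes in every library. The ratio to that median was 0.753, 0.743 and 0.739 in C57BL/6J and 1.13, 1.60 and 1.13 in CC030. Its share of counts was 2.08%, 2.09% and 2.25% in C57BL/6J and 3.25%, 4.29% and 3.37% in CC030, a mean of 2.14% ± 0.097 against 3.64% ± 0.567 (SD, n = 3). The groups did not overlap, and the exact two-sided permutation p was 0.1, the smallest that 3 against 3 libraries can give (Benjamini-Hochberg adjusted 0.157 over 22 chromosomes).

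One gene held much of the highest of these values. Atg3, an enzyme of autophagosome formation at chromosome 16, 45158785 to 45188538, had 31, 16573 and 49 counts in CC030 and 1941, 1675 and 3006 in C57BL/6J. Without CC030 replicate 2 the difference in share was 1.17 percentage points in place of 1.499. Shares of 13 further chromosomes also did not overlap between the strains, in both directions, and each of these had an exact permutation p of 0.1. Chromosome M did not separate the strains in share, with 3.15%, 2.59% and 1.74% in C57BL/6J and 2.37%, 2.98% and 1.63% in CC030 (exact permutation p = 0.7).

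Exonic length itself followed the counts far more closely in CC030. Across the 664 protein-coding genes of chromosome 16, counts correlated with exonic length at Spearman rho 0.808, 0.778 and 0.811 in CC030 and 0.329, 0.333 and 0.342 in C57BL/6J. On chromosome 1 the same values were 0.737, 0.733 and 0.736 against 0.259, 0.269 and 0.234. Genes within a library share its depth and are not independent replicates, so these are descriptions. A count was present at 81.9% to 87.7% of chromosome 16 genes in CC030 and at 31.6% to 33.0% in C57BL/6J.

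The second question was whether genes were ordered alike in both strains. Levels were taken as CPM per exonic kb, in protein-coding genes that passed the filter on low counts, and strain means were compared by Spearman rho within each chromosome. Chromosome 16 gave rho = 0.132 over 609 of its 664 protein-coding genes, the highest of the 20 nuclear chromosomes, with chromosome 2 next at 0.131. Chromosome 2 came first instead with C57BL/6J thinned to the CC030 depth and without C57BL/6J replicate 2, CC030 replicate 2 or CC030 replicate 3. The other 19 ran down to -0.103 on chromosome X with a median of 0.003. Chromosome M gave 0.80 over 11 of its 13 protein-coding genes.

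By library, CC030 replicates 1 to 3 gave rho against the C57BL/6J mean of 0.057, 0.113 and 0.162 on chromosome 16, against a median of -0.008, -0.010 and -0.005 on the other chromosomes. In CC030 replicate 1, chromosomes 2 and 19 stood higher than chromosome 16, at 0.151 and 0.091. On chromosome M the 3 libraries gave 0.773, 0.818 and 0.809. For scale, a C57BL/6J library against the mean of the other 2 gave 0.860 to 0.878 on chromosome 16, and a CC030 library with the other CC030 libraries at 0.610 to 0.667. CC030 libraries thus ordered chromosome 16 genes more like each other than like C57BL/6J in all 3 cases.

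The gap between chromosome 16 and the median of the other chromosomes was 0.065, 0.123 and 0.167 in CC030 and 0.021, 0.014 and 0.017 in C57BL/6J. The means differed by 0.101 (exact permutation p = 0.1, the smallest possible). The C57BL/6J values compare libraries of 1 strain, where rho was high on every chromosome and left little room for a gap, so the test does not set like against like. Place in the order depended on which genes were kept. With a mean of at least 10 counts required in each strain, chromosome 16 gave 0.048 over 359 genes, below the median of 0.056 on the other chromosomes, and ranked 12 of 20.

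**Figure D2:**
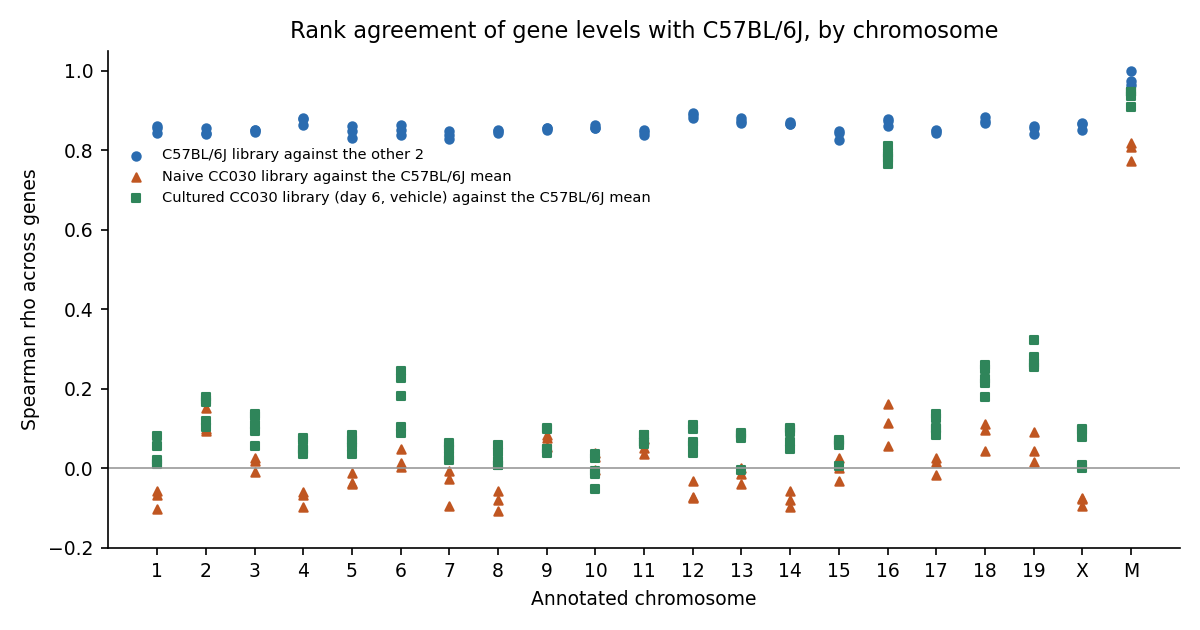
Spearman rho across protein-coding genes, by annotated chromosome, for each C57BL/6J library against the other 2 (circles), each naïve CC030 library against the C57BL/6J mean (triangles) and each vehicle-cultured CC030 library of day 6 against the C57BL/6J mean (squares). Naïve CC030 reaches 0.057 to 0.162 on chromosome 16 and 0.773 to 0.818 on chromosome M, and the cultured libraries reach 0.765 to 0.811 on chromosome 16.

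CC030 libraries that the grouping above did not use came from 5 other mice, sorted as CD90+, CD127+ and ST2+ and grown with IL-33, TSLP and IL-2 plus vehicle, with the same alignment route. At day 6 their rho against naïve C57BL/6J was 0.765 to 0.811 on chromosome 16 and 0.909 to 0.945 on chromosome M. The mean of the 5 gave 0.797 on chromosome 16, while the other chromosomes had a median of 0.080 and a highest value of 0.286 on chromosome 19. At day 2 the 5 libraries ranged widely on chromosome 16, from 0.127 to 0.698. Culture, sort gate and mice differ from the naïve libraries all at once, so the difference between naïve and cultured CC030 was not tested.

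The strongest gene of each chromosome was chosen by its level in C57BL/6J, so a lower value in CC030 is partly set by that choice, and the values are a description. On chromosome 16 it was Samsn1, a lymphocyte adaptor protein gene, with 30721, 25440 and 26262 counts in C57BL/6J and 20, 30 and 49 in naïve CC030. In CPM of all gene counts, Samsn1 stood at 1724 to 2270 in C57BL/6J, at 15.1 to 32.1 in naïve CC030 and at 906 to 2038 in the 5 cultured libraries of day 6. Naïve CC030 held 1.17% of the C57BL/6J mean and the cultured libraries 68.9%.

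Of the strongest genes of the 19 other nuclear chromosomes, 18 stood under 1% of the C57BL/6J mean in naïve CC030, and the highest was Cyba, an NADPH oxidase subunit gene on chromosome 8, at 1.67%. One of the 18, Sftpc on chromosome 14, was strongest through C57BL/6J replicate 3 alone. Among the others were B2m (chromosome 2, MHC class I light chain), Id2 (12) and Fth1 (19, ferritin heavy chain). B2m had 248111, 249253 and 117173 counts in C57BL/6J and 11, 6 and 10 in CC030. At day 6 of culture 18 of the 19 stood under 10% of C57BL/6J, and the exception was Ltb, the lymphotoxin beta gene on chromosome 17, at 31.8%.

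On chromosome M the strongest gene was mt-Cytb, cytochrome b of complex III. It had 141524, 129229 and 82307 counts in C57BL/6J and 3639, 5599 and 2716 in naïve CC030, which is 33.3% of the C57BL/6J mean in CPM of all gene counts. Counts differ with library depth, so the scaled values are the ones to compare. In CPM of all gene counts it stood at 5403 to 10460 in C57BL/6J and 1781 to 3732 in naïve CC030, which did not overlap.

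The third question was which genes differed. Over all chromosomes the edgeR test called 76.3% of 35551 genes at an adjusted p under 0.05. CC030 was higher at 22798 of them (64.1%) and C57BL/6J at 4324 (12.2%), and the median log2 difference, CC030 minus C57BL/6J, was 7.03. On chromosome 16, 1053 of 1599 genes passed the filter, 631 were higher in CC030, 128 in C57BL/6J and 294 did not pass the test. Its 59.9% and 12.2% lay inside the range of the 19 other nuclear chromosomes, 55.7% to 69.6% for CC030 higher and 10.4% to 14.96% for C57BL/6J higher. Without C57BL/6J replicate 3, which held the epithelial transcripts, 558 chromosome 16 genes were higher in CC030 and 148 in C57BL/6J, and the rank agreement of chromosome 16 was 0.114.

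**Figure D3:**
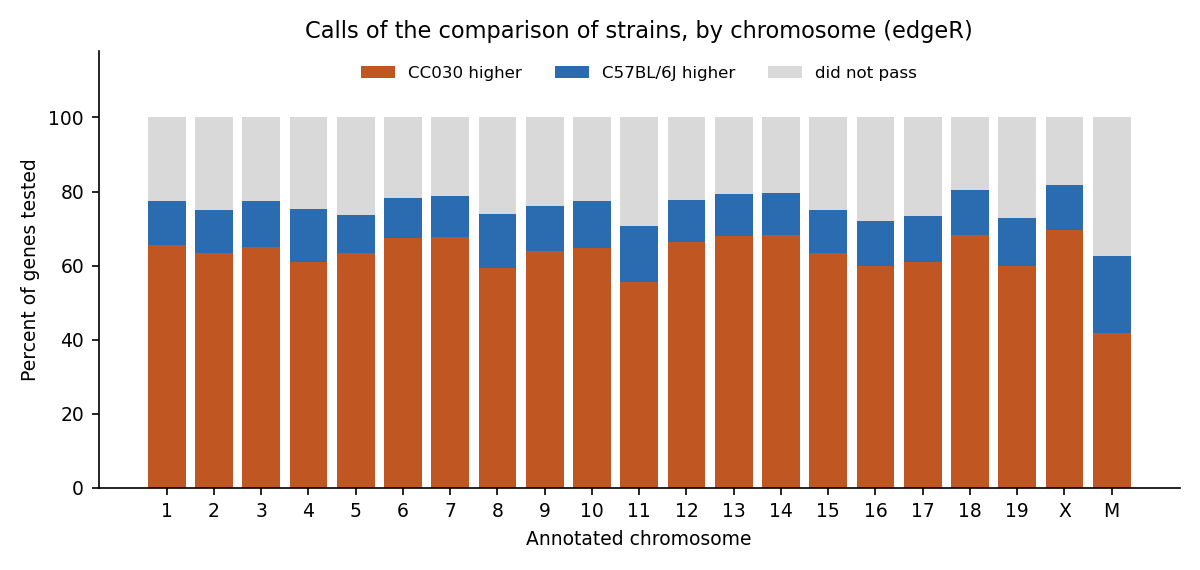
Percent of genes tested on each annotated chromosome that were higher in CC030, higher in C57BL/6J or did not pass at an adjusted p under 0.05 (edgeR). Chromosome 16 holds 59.9% higher in CC030 and 12.2% higher in C57BL/6J, within the range of the other nuclear chromosomes, and chromosome M holds 41.7% and 20.8%.

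The median log2 difference was 6.23 on chromosome 16 and between 4.52 on chromosome 11 and 7.39 on chromosome 13 elsewhere. These counts and medians rest in part on genes at 0 in C57BL/6J, which made up 40.9% of the genes tested on chromosome 16 and 36.5% to 54.9% on the others, and the fitted difference of such a gene is no bound. Among the 609 protein-coding genes tested on chromosome 16 the median was 2.49. Requiring at least 10 counts in every library left 7223 genes, of which 1635 were higher in CC030 and 1938 in C57BL/6J. On chromosome 16 that left 268 genes, 58 higher in CC030 and 64 in C57BL/6J.

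The 10 largest decreases on chromosome 16 were 6 pseudogenes and 4 protein-coding genes, Hlcs, Samsn1, Atp5j and Cd200r1. Samsn1 fell by 7.63 on the log2 scale (SE 0.54, adjusted p = 0.00045). Atp5j, a subunit of mitochondrial ATP synthase, had 16574, 16503 and 6271 counts in C57BL/6J and 37, 27 and 34 in CC030. Cd200r1, an inhibitory receptor of ILC2s, had 4017, 3308 and 4697 counts against 13, 10 and 34, and fell by 5.61 (SE 0.57, adjusted p = 0.00046). Only genes past the threshold whose strains did not overlap could enter this list, so that separation was set by the choice.

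Hlcs, which attaches biotin to carboxylases, had at least 100 counts in every C57BL/6J library and 0 in every CC030 library. The 6 pseudogenes were Gm10241, BC002163, AC114990.1, Gm9843, Gng5-ps and Rps10-ps2, whose reads may belong to near-identical expressed genes elsewhere and are uncertain. Gm9843 had 5667, 6908 and 5218 counts in C57BL/6J and 9, 13 and 5 in CC030.

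All of the 10 largest increases on chromosome 16 were at 0 in every C57BL/6J library. They passed the filter on low counts through CC030 alone, so their calls as higher were set by it. Masp1, a serine protease gene of the lectin complement pathway, had 240, 143 and 150 counts in CC030 and was at least 259-fold higher against a floor of 3 counts per library. Dscam, a neuronal adhesion molecule, had 126, 158 and 142, and Muc4, a membrane mucin, 108, 140 and 166. Robo2, an axon guidance receptor, the neuronal adhesion gene Lsamp, the receptor gene Ephb3, the kinase gene Map3k13, the germline gene Morc1, 4930562C15Rik and the noncoding Gm49534 completed the 10, with bounds from 138-fold to 214-fold.

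**Figure D4:**
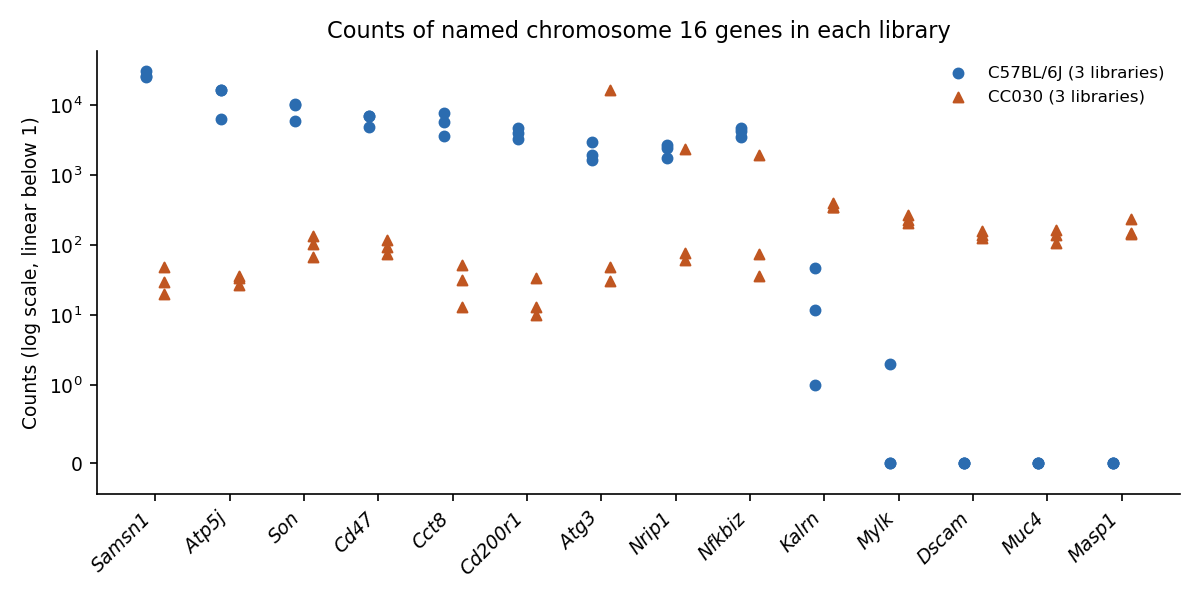
Counts of 14 named chromosome 16 genes (log scale, linear below 1) in each of the 3 C57BL/6J (circles) and 3 CC030 (triangles) libraries. The 6 genes on the left lie far lower in CC030, Atg3, Nrip1 and Nfkbiz each have 1 CC030 library far above the other 2, and the 5 on the right have at most 48 counts in C57BL/6J.

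The most abundant chromosome 16 genes of CC030 were of another kind. Atg3, Nrip1 and Nfkbiz led by mean level, and each was carried by 1 library. Nrip1, a nuclear receptor corepressor, had 77, 61 and 2339 counts in CC030 and 2471, 2726 and 1754 in C57BL/6J. Nfkbiz, an inducible NF-kB cofactor, had 37, 1942 and 76 against 4677, 3541 and 4358. None of these 3 genes passed the test, with adjusted p of 0.154, 0.723 and 0.710. Kalrn, a guanine exchange factor best known in neurons, was even instead, at 353, 402 and 349 counts in CC030 and 1, 48 and 12 in C57BL/6J (log2 difference 6.25).

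Genes carried by 1 CC030 library, with at least 100 counts there and at least 5 times the next CC030 library, were counted as a search added after the data were seen. Chromosome 16 had 4, Atg3, Nrip1, Nfkbiz and Il10rb, and all 4 had at least 10 CPM in every C57BL/6J library. Of 28 on the other chromosomes, 13 did. Genes at that level made up 25.6% of protein-coding genes on chromosome 16 and 21.9% elsewhere. The 28 included Camk2a on chromosome 18, with 104, 4782 and 147 counts in CC030 and 0 in C57BL/6J, and Atp5f1 on chromosome 3, with 4488, 10 and 23 in CC030 against 11764, 10405 and 6624.

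Among receptors on chromosome 16, the 4 interferon and IL-10 family genes gave 1 lower in CC030 and 3 that did not pass. Over all genes tested 12.2% were lower and 64.1% higher, the shares to set beside this list and those that follow. Ifnar2, a type I interferon receptor chain, had 434, 637 and 726 counts in C57BL/6J and 16, 10 and 26 in CC030, and fell by 2.98 on the log2 scale (SE 0.55, adjusted p = 0.0013). On the TMM scale its partner Ifnar1 stood at 28.1 ± 10.8 CPM in C57BL/6J and 28.2 ± 6.45 in CC030 (SD, n = 3). The log2 difference was 0.007 with an SE of 0.55, and this closeness depends on that scale. Il10rb, shared by several IL-10 family receptors, had 286, 360 and 810 counts against 112, 19 and 14.

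In the CD200 receptor family of 5 genes, Cd200r1 was lower and Cd200r2 higher in CC030, and 3 did not pass, beside 12.2% lower and 64.1% higher over all genes. Cd200r2 had 0 counts in C57BL/6J and 22, 9 and 23 in CC030, so it passed the filter through CC030 alone, which set its call. The ligand gene Cd200 had 0, 0 and 486 counts in C57BL/6J, all from replicate 3, and 25, 44 and 35 in CC030.

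Of 11 costimulatory and inhibitory surface genes, 6 were higher in CC030, 2 lower and 3 did not pass, shares near the 64.1% and 12.2% of all genes tested. Cd47, the ligand that restrains phagocytosis, was among the strongest chromosome 16 genes, at 680 ± 125 CPM in C57BL/6J and 44.6 ± 10.8 in CC030 (log2 difference -3.93, SE 0.39, adjusted p = 0.00046). Cd96, a receptor for nectin-like ligands, was lower too, with 1577, 1134 and 3590 counts against 57, 44 and 253. Btla, Cd80, Nectin3 and Tnfrsf17 were at 0 in C57BL/6J and had 12 to 78 counts in each CC030 library, and Cd86 and Alcam were the other 2 increases. Genes at 0 in C57BL/6J passed the filter on low counts through CC030 alone, so their calls as higher were set by it. Tigit had 106, 0 and 0 counts in C57BL/6J and 4, 1 and 7 in CC030 and did not pass.

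Signaling genes were called in both directions, beside 12.2% lower and 64.1% higher over all genes tested. Of 11 genes of IL-33 and cytokine signaling, 4 were lower, among them Socs1, Pak2 and Litaf, 2 were higher (the adenylyl cyclase genes Adcy5 and Adcy9) and 5 did not pass. Under DESeq2 the signaling list gave 3 lower and 5 higher, so its balance depends on the tool. Il1rap, the IL-33 coreceptor, had 0, 144 and 39 counts in C57BL/6J and 82, 137 and 78 in CC030, and missed the threshold (adjusted p = 0.122). Socs1, a feedback inhibitor of cytokine receptors, had 466, 708 and 7272 counts against 48, 56 and 44. Of 18 transcription factors and cofactors, 5 were lower, 5 higher and 8 did not pass, beside 12.2% lower and 64.1% higher over all genes. Hes1, a Notch target, fell from 250 ± 24.6 to 37.3 ± 40.1 CPM, while Crebbp, a histone acetyltransferase, rose from 39.0 ± 6.34 to 105 ± 30.8 (SD, n = 3). Gabpa, an ETS family factor, had 1009, 1633 and 1083 counts in C57BL/6J and 54, 29 and 31 in CC030.

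Of 11 translation genes, 7 were lower, 1 higher (Eif4g1) and 3 did not pass, with a median log2 difference of -3.69 beside 7.03 over all genes tested. All genes tested gave 12.2% lower and 64.1% higher, beside this list and the others of this paragraph. Eif4a2, a translation helicase, had 4717, 4934 and 7125 counts in C57BL/6J and 30, 49 and 49 in CC030. Rpl35a of the large ribosomal subunit had 3316, 3156 and 1765 against 38, 14 and 50. Of 9 respiration and redox genes tested, 5 were lower, among them Atp5j, Atp5o, Ndufb4 and Sod1, 1 higher (Cox17) and 3 did not pass. Of 11 proteostasis and trafficking genes, 5 were lower, 1 higher (Pdia5) and 5 did not pass, and Cct8, a chaperonin subunit, had 3609, 5785 and 7839 counts against 13, 53 and 32.

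Respiratory chain and ribosomal protein genes were also counted on the other chromosomes, beside 12.2% lower and 64.1% higher over all genes tested. Of 80 nuclear respiratory chain genes tested there, 69 were lower and 5 higher (median -5.91), and on chromosome 16 all 3 tested were lower (median -4.15). Of 81 cytosolic ribosomal protein genes elsewhere, 69 were lower and 3 higher (median -4.87), and of the 3 on chromosome 16 Rpl35a was lower while Rpl24 and Rpl39l did not pass. With 3 genes a side on chromosome 16 the difference between chromosomes was not tested.

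Of 13 cell cycle and DNA repair genes, 5 were higher, 1 lower and 7 did not pass, beside 64.1% higher and 12.2% lower over all genes tested. Polq, a DNA repair polymerase, had 0, 1 and 10 counts in C57BL/6J and 77, 100 and 87 in CC030. Rfc4, a clamp loader subunit, was the 1 that was lower, with 657, 389 and 693 counts against 41, 52 and 31. Of 5 antiviral genes, Mx1, an interferon-induced GTPase, was higher with 61, 62 and 55 counts in CC030 and 1, 0 and 0 in C57BL/6J, and the other 4 did not pass. Polq and Mx1, near 0 in C57BL/6J, passed the filter through CC030, which largely set their calls as higher.

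Genes that define other tissues often had counts in CC030 where C57BL/6J had none. Most that passed the filter on low counts did so through CC030 alone, where a call as higher was set by the filter, so levels are given in place of calls. Of 12 plasma protein and endocrine genes, 10 were at 0 in C57BL/6J and none in CC030, and Kng1, the liver kininogen gene, had 46, 36 and 32 counts in CC030. Of 10 stefin and resistin-like genes 8 were at 0 in C57BL/6J, of 16 neuronal and muscle genes 11 and of 13 epithelial and endothelial genes 8, and in these 3 lists no gene was at 0 in CC030. Mylk, the smooth muscle myosin kinase gene, had 207, 232 and 268 counts in CC030 and 0, 0 and 2 in C57BL/6J. Of 12 immunoglobulin lambda and surrogate light chain genes, 9 were at 0 in C57BL/6J and 1 in CC030.

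Olfactory receptors are expressed in sensory neurons of the nose. Of 45 on chromosome 16, 41 were at 0 throughout C57BL/6J and 3 throughout CC030, and of 1362 elsewhere 1196 and 33. Median levels were 2.36 CPM per exonic kb on chromosome 16 and 3.23 elsewhere in CC030, and 0 in C57BL/6J in both. Of 25 keratin-associated genes on chromosome 16, hair shaft proteins, 24 were at 0 throughout C57BL/6J, and none was at 0 throughout CC030.

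Median CC030 levels lay close together in these groups. On chromosome 16 the median CC030 level was 4.49 CPM per exonic kb for translation genes, 5.14 for costimulatory genes, 7.56 for plasma protein genes and 3.96 for neuronal and muscle genes. In C57BL/6J the same medians were 82.4, 0.679, 0 and 0.

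On chromosome M, 24 of 37 genes passed the filter, 10 were higher in CC030, 5 lower and 9 did not pass, with a median log2 difference of 0.96. Over all genes tested 64.1% were higher and 12.2% lower. Of the 11 protein-coding genes tested, 3 were lower (mt-Cytb, mt-Co1 and mt-Nd1), 1 higher (mt-Nd3) and 7 did not pass. mt-Co1, a catalytic subunit of complex IV, had 101622, 78851 and 81362 counts in C57BL/6J and 1559, 2369 and 1302 in CC030, and fell by 3.55 on the log2 scale (SE 0.44, adjusted p = 0.00046). mt-Nd2 of complex I had 11906, 11873 and 6431 counts against 2173, 3610 and 2310. In CPM on the TMM scale mt-Nd2 stood at 1128 ± 492 and 1249 ± 337 (SD, n = 3), which overlapped. The overlap depends on that scale, which is not the CPM of all gene counts given for mt-Cytb.

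Both mitochondrial ribosomal RNAs missed the threshold, mt-Rnr1 at 585 ± 270 CPM in C57BL/6J against 1267 ± 443 in CC030 and mt-Rnr2 at 3500 ± 1386 against 2630 ± 888. Transfer RNAs held most of the increases: of 22, 11 were tested, 9 were higher and 2 lower, beside 64.1% and 12.2% over all genes tested. mt-Tq had 96, 57 and 21 counts in C57BL/6J and 670, 1012 and 534 in CC030, whose library totals were far smaller. Several of these short genes lie beside or opposite longer ones, and the sources used here do not give the strand setting of the counting, so counts of mt-Tq, mt-Tp and mt-Nd6 are uncertain.

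The last question was where along a chromosome the strains matched. In 10 Mb windows with at least 20 protein-coding genes, rho between naïve CC030 and C57BL/6J ran from -0.322 to 0.356 over the 8 windows of chromosome 16, with a median of -0.014, and from -0.693 to 0.517 over 237 windows of the other chromosomes, with a median of -0.034. It was above 0 in 3 of the 8 and 95 of the 237. At day 6 of culture all 8 windows of chromosome 16 exceeded 0.5, as did 12 of 237 elsewhere.

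Levels were also slid along the chromosome, in windows of 4 Mb and by up to 5 Mb, to find the offset at which they matched C57BL/6J best, and an offset within 5 kb counted as none. Between C57BL/6J replicate 3 and the other 2, no offset was best in 47 of 48 windows of chromosome 16 and in 97.1% of 1254 other windows. For naïve CC030 it was best in 9 of 48 windows of chromosome 16 (18.8%) and in 9.57% of the others, from 3.03% on chromosome 10 to 16.4% on chromosome 7. The median correlation at no offset was 0.152 on chromosome 16, above the 0.081 of chromosome 3, the highest of the others. Neighbouring windows share genes, so these are counts of windows, not of independent sites.

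**Figure D5:**
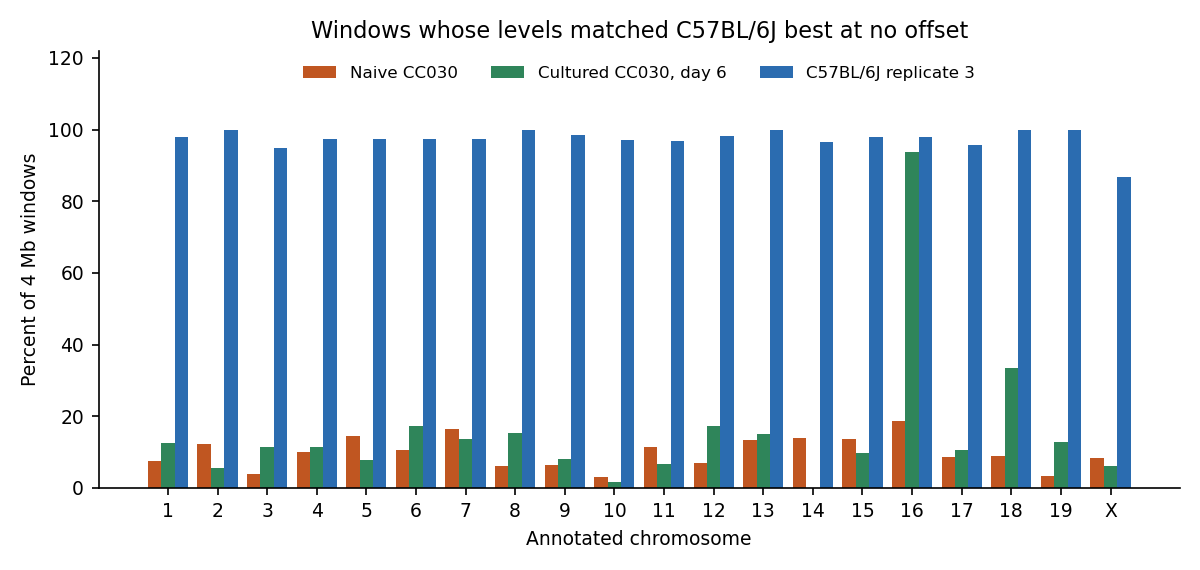
Percent of 4 Mb windows in which gene levels matched C57BL/6J best at no offset, by annotated chromosome, for naïve CC030, cultured CC030 of day 6 and C57BL/6J replicate 3. Naïve CC030 has its highest bar on chromosome 16, at 18.8%, cultured CC030 reaches 93.8% there, and C57BL/6J stands at 86.8% or more on every chromosome shown.

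For cultured CC030, no offset was best in 36 of 48 windows of chromosome 16 at day 2 and 45 of 48 at day 6, against 9.57% and 10.9% of windows elsewhere. On the other 19 nuclear chromosomes the first window was best at no offset in 10 at day 6, 8 at day 2 and 1 in naïve CC030. The first windows of naïve chromosome 16 were among its matches, with a correlation of 0.567 at no offset in the window starting at 0 Mb and 0.342 in that starting at 2 Mb.

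A final measure, added after the data were seen, set genes with at least 10 CPM in every C57BL/6J library against genes at 0 in all 3. The median density of the first over the second on chromosome 16 was 1.21, 1.29 and 1.51 in CC030 replicates 1 to 3, and the medians over the other chromosomes were 1.11, 1.15 and 1.13. Single chromosomes among the others reached 1.48, 1.43 and 1.31, so chromosome 16 was the highest in replicate 3 alone. In means the ratio on chromosome 16 was 1.12, 4.39 and 1.55 in CC030 replicates 1 to 3. Without the genes carried by 1 library it was 1.11, 1.24 and 1.45. The highest values of the other chromosomes, with all genes kept, were 1.31, 1.27 and 1.29.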

How the data were processed

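Bulk RNA-seq of 3 naïve CC030 and 3 naïve C57BL/6J ILC2 libraries was used, with 10 vehicle-cultured CC030 libraries of days 2 and 6 for comparison. Raw counts for each gene were deposited, which the authors made with fastp, STAR and HTSeq, with lapels for CC030. Which gene annotation they counted on: not given in the sources used here. Chromosomes, symbols and exonic lengths came from GENCODE vM21 (GRCm38, mm10). The members and gene lists were chosen with earlier results of these data known.

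Genes were filtered with filterByExpr (minimum count 10, minimum total 15), scaled by TMM and compared in edgeR 4.0.16 (R 4.3.3) with its robust quasi-likelihood test, with p adjusted by the Benjamini-Hochberg method over 35551 genes at 0.05. CPM is on the TMM scale in marker and list values, in folds and wherever an SD is given. TMM factors were 0.600 to 0.754 in C57BL/6J and 1.516 to 1.557 in CC030. Rank agreement, the 10 CPM limit and CPM of all gene counts used library totals without these factors. C57BL/6J libraries were about as deep as each other and CC030 libraries far shallower, and a count of 0 allows up to 3 counts. Shares were compared by exact two-sided permutation tests, for which 0.1 is the smallest p of 3 against 3 libraries. Python 3.11.15 and scipy 1.17.1 were used otherwise, and the edgeR fit and the offset search were tested on simulated data. Each mouse gave 1 library, and replicate numbers did not pair the strains: deviations of same-numbered libraries correlated at -0.005, 0.002 and -0.011. Alternatives were DESeq2 1.42.0, its size factors, factors from chromosome 16, other filters, protein-coding genes alone, C57BL/6J thinned to 1324595 counts, a replicate block and leaving out each library.

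Named genes are the members of the lists on chromosomes 16 and M with the highest C57BL/6J level or smallest p, the strongest gene of each chromosome per exonic kb, and on chromosome 16 the 6 most abundant genes of each strain and the 10 largest changes each way with at least 50 counts and strains that did not overlap. Camk2a, Atp5f1 and other members named beside small counts were chosen after their values were seen. The values of a few genes are not reported here.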

Additional observations from a re-analysis of the deposited data

How the results depend on the processing

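Directions and counts of calls held in most alternatives. The balance turned with at least 10 counts in every library, where C57BL/6J held more of the calls over all chromosomes and on chromosome 16. Genes higher in CC030 numbered 22798 over all chromosomes, 631 on chromosome 16 and 10 on M, and changed by over 1.5 times with at least 10 counts in every library (1635, 58 and 6), with protein-coding genes alone (10227, 295 and 1) and, for the first pair, with C57BL/6J thinned (14505 and 391). Genes higher in C57BL/6J, 4324, 128 and 5, came to 1938, 64 and 2 with at least 10 counts in every library, to 3 on M with protein-coding genes alone and to 3 on M with the replicate block. The block gave 22949 and 3653 over all chromosomes and changed no other count by over 1.5 times, and the replicate numbers did not pair the samples. Leaving out each library gave 18579 to 20358 and 3718 to 4778 over all chromosomes, 509 to 558 and 103 to 148 on chromosome 16, and 10 to 11 and 3 to 6 on M, the 3 without C57BL/6J replicate 1. The median log2 difference over all genes moved from 7.03 to 7.56 with DESeq2's size factors. It fell to 4.35 with C57BL/6J thinned and to 3.28 with protein-coding genes alone. With at least 10 counts in every library it was 0.022, and 0.095 on chromosome 16. No gene called in the chromosome 16 lists turned direction under DESeq2 or with factors from chromosome 16.

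Rank agreement of chromosome 16, 0.132, was 0.319 without division by length, 0.054 with all biotypes and 0.048 with a mean of at least 10 counts in each strain, and 0.102 to 0.145 without each library. On M, 0.80 became 0.754, 0.845 (Pearson) and 0.439 (all biotypes). The median of the other chromosomes, 0.003, became 0.186 without length, -0.044 by Pearson, -0.066 with all biotypes and 0.056 with at least 10 counts, and -0.015 to 0.012 without each library. The gap of chromosome 16 by library was 0.076 to 0.128 without each library. With a mean of at least 10 counts in each strain, chromosome 16 lay below the median of the others, and the gap by library was not computed there. The difference in share on M, -0.170 percentage points, was 0.268 without the 10 highest genes of each strain and -0.546 to 0.179 without each library, and on chromosome 16, 1.499, it was 0.953 without those genes and 1.17 to 1.69 without each library. The cause of these changes was not tested. The lower depth of CC030 limits every low gene, and a gene at 0 in CC030 could lie below its limit.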
